A study of Capra hircus with 3 samples.

Results

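The genes described here encode potassium, sodium and chloride channels, with the subunits and other proteins that carry a channel in their name. They were taken from a table of FPKM (a read count scaled to gene length and library total) by its product text. An entry was a member where that text began with "potassium" and contained "channel", or began with "sodium channel" or "chloride channel". This gave 142 of 24689 entries, and KCNN1 was among them. The table came from the longissimus dorsi, the long muscle of the back, of goats (Capra hircus). It held 1 library each from a kid stage at 2 months, a youth stage at 9 months and an adult stage at 24 months. The labels used here give no breed, sex or treatment, and do not say whether a library held 1 animal or a pool. There were no replicates, so no test between stages was possible, and every difference below is one between 3 libraries.

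A muscle fibre is excited by a sodium current through voltage-gated channels that runs along the surface and into the transverse tubules. Potassium channels then carry the membrane back towards rest, and chloride conductance, which is unusually large in skeletal muscle, keeps the resting fibre stable. Inward rectifiers set the resting potential, and ATP-sensitive potassium channels tie excitability to the energy state of the fibre.

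The totals behind the FPKM values, worked out from the steps between them, came to 15829474 (kid), 14920689 (youth) and 18399385 (adult). A gene of 1 kb with 3 reads stood at 0.190, 0.201 and 0.163 FPKM in that order, which is the level that a count of 0 still allows. Ratios of FPKM are given with exact 95% intervals of the reads behind them. These intervals cover counting error only, and not differences between animals. The 6 skeletal muscle markers summed to 39332, 46709 and 51284 FPKM (3 higher and 1 lower in youth than in kid beyond counting error), with CKM between 14183 and 19069 FPKM. One protocol text speaks of mammary tissue, against the tissue label, and the milk protein genes CSN2, CSN3, CSN1S2 and LALBA were listed at 0 throughout, with LTF at 0.362 FPKM in kid and at 0 in the others.

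Of the 142 members, 54 reached 1 FPKM in at least 1 library, 66 lay above 0 but below 1 FPKM, and 22 were listed at 0 in every library. Of the 54, 47 were at 1 FPKM or more in all 3 libraries, and 7 passed only through their higher libraries. Just inside the limit were KCNK6, SCLT1 and KCNRG, with highest values of 1.16, 1.19 and 1.19 FPKM. Among those just outside were KCNN2 and KCNK7, with highest values of 0.907 and 0.840 FPKM. The classical channel families and their subunits made up 114 of the members and 35 of the 54. The other 19 are KCTD proteins and proteins outside those families that carry a channel in their name.

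The classes differed in how many of their genes the muscle libraries held. All 4 sodium channel beta subunits reached 1 FPKM, as did 7 of 8 genes of the CLC family of chloride channels and exchangers. Only 1 of 10 voltage-gated sodium channel alpha subunits did, and 9 of 38 voltage-gated potassium channels. Among the inward rectifiers it was 4 of 15, among the calcium- and sodium-activated potassium channels 6 of 12, and among the K2P leak channels 1 of 13. None of the 4 epithelial sodium channel subunits reached it. In most classes a single gene carried much of the summed level: SCN4A held 97.1%, 98.2% and 98.2% of the alpha-subunit FPKM in kid, youth and adult, and KCNJ11 held 50.7%, 51.1% and 43.3% of that of the inward rectifiers. FPKM is a level per length, so sums and shares within a class compare genes on that scale.

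**Figure D1:**
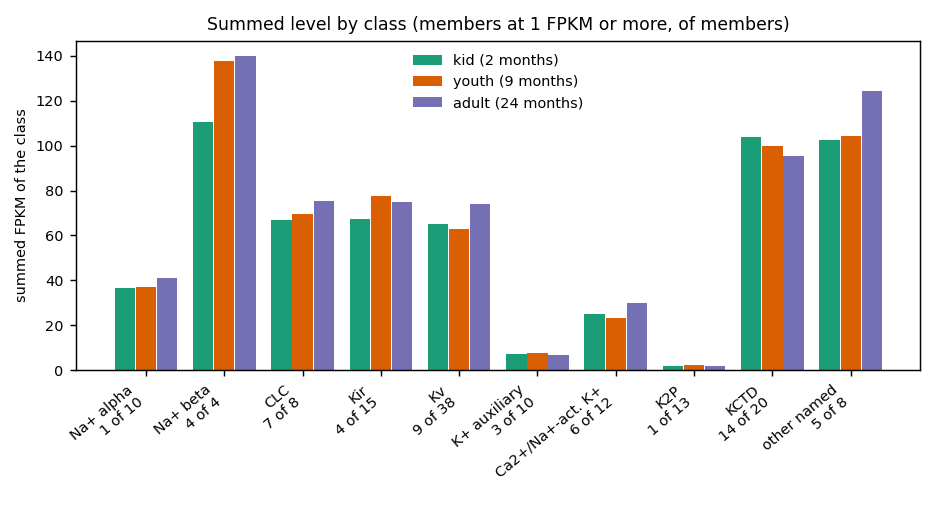
Summed FPKM (vertical axis) of the members of each class (horizontal axis), with 1 bar per library and, under each class, how many of its members reached 1 FPKM. The sodium channel beta subunits had the highest sum of the channel classes, at 110, 138 and 139.7 FPKM for kid, youth and adult, while the K2P channels summed to between 2.06 and 2.20 FPKM.

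Among the 54, 4 members stood at least 2-fold apart between libraries with an interval that left out 1: SCN4B and SCN3B, both sodium channel beta subunits, and the potassium channels KCNN1 and KCNC1. This was 7.41% of the 54, against 9.33% of the 12677 entries at 1 FPKM that met the same rule in at least 1 comparison. KCNN1 and KCNC1 were high in the adult library alone, SCN4B was lowest in kid, and SCN3B was highest in youth. As deposited, SCN4A and CLCN1, the main sodium and chloride channels of the fibre, differed by at most 1.14-fold between any pair of libraries. After median-of-ratios scaling SCN4A was 1.23-fold higher in adult than in kid.

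The pore-forming sodium channel of adult muscle showed little difference between libraries. SCN4A (gene 102177748), which carries the action potential of the muscle fibre, stood at 35.6, 36.4 and 40.4 FPKM in the kid, youth and adult libraries, the order used throughout, from 4229, 4076 and 5581 reads. The adult value was 1.11-fold above youth (1.07 to 1.16), and youth and kid did not differ beyond counting error (ratio 1.02, 0.979 to 1.07). After median-of-ratios scaling the ratios to kid were 1.09 for youth and 1.23 for adult. Under both scalings tried, youth and adult lay above kid beyond counting error. The other 9 alpha-subunit genes lay below 0.5 FPKM. The highest of them was SCN7A, a sodium channel known from glia and from sensing of salt, at 0.463, 0.201 and 0.326 FPKM from 39, 16 and 32 reads.

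The sodium channel beta subunits, small membrane proteins that modify gating and anchor the channel, differed more. SCN4B (gene 102182329) was at 15.03, 34.7 and 27.4 FPKM, from 336, 731 and 712 reads. The kid library was thus the low one, with no overlap of the counting intervals, and youth was 2.31-fold above it (2.03 to 2.63). Adult was 1.27-fold below youth (1.14 to 1.41) and 1.82-fold above kid (1.60 to 2.08). Set against SCN4A in the same library, the SCN4B level was 0.423 of it in kid (0.377 to 0.472), 0.954 in youth (0.881 to 1.03) and 0.679 in adult (0.627 to 0.734).

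SCN2B and SCN3B were both lowest in the adult library. SCN2B was at 6.63, 6.32 and 4.10 FPKM, and adult was 1.54-fold below youth (1.10 to 2.18). SCN3B was at 1.17, 1.70 and 0.805 FPKM from 99, 135 and 79 reads, and adult was 2.11-fold below youth (1.58 to 2.82). SCN3B passed the limit of 1 FPKM only through kid and youth, and its ratio lies close to the 2-fold limit: after quantile normalization it was 0.501, just short of that limit. Its difference between adult and kid (1.46-fold lower, 1.07 to 1.98) was no longer beyond counting error under either other scaling.

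The chloride channel of the muscle surface differed little between libraries. CLCN1 (gene 100750232), the channel behind the resting chloride conductance and mutated in myotonia congenita, stood at 25.8, 26.9 and 27.3 FPKM from 1511, 1487 and 1855 reads. The ratio of youth to kid was 1.04 (0.971 to 1.12) and that of adult to youth 1.01 (0.944 to 1.08). After median-of-ratios scaling the ratios to kid were 1.12 for youth and 1.15 for adult, and under both scalings tried these lay beyond counting error.

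The CLC exchangers of endosomes and lysosomes had their highest level in adult for 3 of 5 genes. CLCN7, the lysosomal exchanger, was at 11.8, 11.3 and 15.1 FPKM, 1.33-fold higher in adult than in youth (1.20 to 1.47). CLCN3 was at 7.60, 7.39 and 9.80 FPKM (1.33-fold, 1.14 to 1.54) and CLCN6 at 5.14, 4.60 and 6.40 FPKM (1.39-fold, 1.23 to 1.58). In each of these genes the kid and youth libraries overlapped within counting error and adult stood above both. CLCN4 was instead highest in youth, at 11.4, 14.1 and 12.6 FPKM (1.24-fold over kid, 1.10 to 1.39), and CLCN5, at 2.27, 2.73 and 2.19 FPKM, did not differ beyond counting error. CLCN2, a plasma membrane chloride channel found in many tissues, was at 2.60, 2.15 and 1.67 FPKM, 1.56-fold lower in adult than in kid (1.17 to 2.09).

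Among the inward rectifiers, the potassium channels that pass current more easily into the cell, the ratios between the genes differed between libraries. KCNJ11 (gene 102185938), the pore of the ATP-sensitive channel of muscle, stood at 34.2, 39.7 and 32.5 FPKM. The youth library was the high one, 1.16-fold above kid (1.08 to 1.25), and adult was 1.22-fold below youth (1.14 to 1.31). KCNJ12 (gene 102174425), an inward rectifier that helps to hold the resting potential, was at 16.5, 23.2 and 30.2 FPKM from 544, 724 and 1160 reads. It was higher at each step, 1.41-fold from kid to youth (1.26 to 1.58) and 1.30-fold from youth to adult (1.18 to 1.43), so that adult was 1.83-fold above kid (1.66 to 2.03). KCNJ2, the inward rectifier mutated in Andersen-Tawil syndrome, was at 6.36, 7.53 and 4.70 FPKM, and adult was 1.60-fold below youth (1.42 to 1.81).

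The level of KCNJ12 was therefore 2.59 times that of KCNJ2 in kid (2.29 to 2.92), 3.08 times in youth (2.77 to 3.44) and 6.41 times in adult (5.76 to 7.15). KCNJ11 stood at 2.08 times KCNJ12 in kid (1.88 to 2.30), and in adult the ratio of 1.08 had an interval that held 1 (0.997 to 1.16). KCNJ8, the ATP-sensitive pore known from vessel walls, was at 9.40, 6.79 and 6.64 FPKM, 1.38-fold lower in youth than in kid (1.14 to 1.69). ABCC9, the sulphonylurea receptor that completes these channels and is no member by its wording, was at 36.1, 31.5 and 28.1 FPKM, so that KCNJ11 stood at 0.948, 1.26 and 1.16 times its level. Below the limit, KCNJ3, a G protein-gated rectifier of the heart, rested on 16 reads in kid, 1 in youth and 16 in adult.

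**Figure D2:**
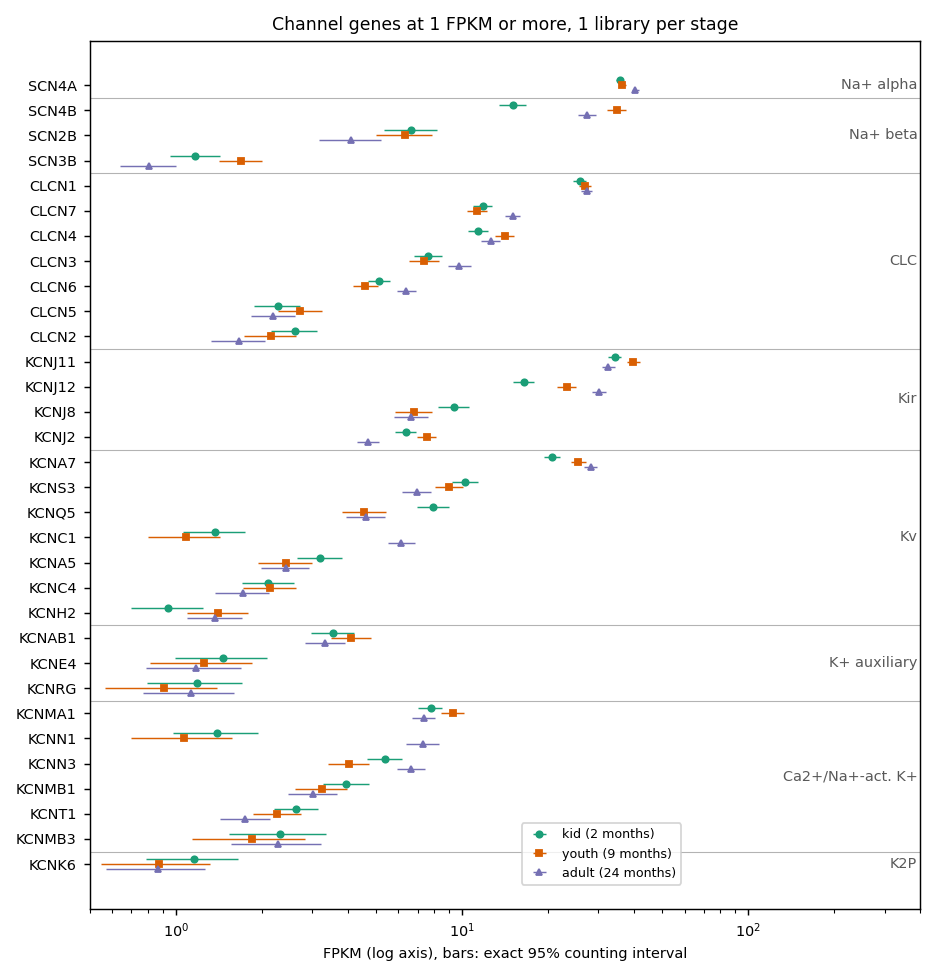
FPKM on a log axis of 32 of the 35 channel and subunit genes that reached 1 FPKM, by class, with 1 symbol per library and bars for the exact 95% counting interval. SCN4A, at 35.6 to 40.4 FPKM, and KCNJ11, at 32.5 to 39.7 FPKM, lie farthest to the right, and KCNN1 and KCNC1 are set apart by adult symbols at 7.31 and 6.15 FPKM against kid and youth symbols between 1.07 and 1.40 FPKM.

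The voltage-gated potassium channels, which repolarize the membrane, were led by KCNA7 (gene 102181332), a shaker-type channel of skeletal muscle and heart. It stood at 20.6, 25.5 and 28.2 FPKM, 1.24-fold higher in youth than in kid (1.13 to 1.35) and 1.11-fold higher in adult than in youth (1.02 to 1.20). KCNQ5, a slowly activating channel, had another order, at 7.95, 4.56 and 4.63 FPKM. Here kid was the high library, 1.74-fold above youth (1.40 to 2.18). KCNS3, a silent subunit that forms no channel alone and modifies other subunits, was at 10.25, 9.01 and 6.97 FPKM, lowest in adult (1.29-fold below youth, 1.10 to 1.52).

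KCNC1 (gene 102185384) encodes a fast delayed rectifier best known from neurons that fire at high rates. It was at 1.38, 1.08 and 6.15 FPKM, from 66, 49 and 343 reads. The counting intervals of kid and youth overlapped, and the adult value lay far above both. Adult was 5.68-fold above youth (4.20 to 7.82) and 4.47-fold above kid (3.43 to 5.91). By these ratios it ranked 37 of 12651 and 25 of 12659 entries, counted from the highest. KCNC4, a channel of the same subfamily known from muscle, was at 2.11, 2.14 and 1.72 FPKM with no difference beyond counting error. KCNC1 was thus at 0.652 of the KCNC4 level in kid (0.468 to 0.904), 0.506 in youth (0.349 to 0.726) and 3.58 times it in adult (2.82 to 4.59).

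The remaining voltage-gated potassium channels were low. KCNA5 was at 3.19, 2.42 and 2.42 FPKM, and adult was 1.32-fold below kid (1.005 to 1.73), with ratios of 0.826 and 0.873 after median-of-ratios scaling and quantile normalization that were no longer beyond counting error. KCNH2, the channel of cardiac repolarization, was at 0.943, 1.41 and 1.37 FPKM, 1.49-fold higher in youth than in kid (1.02 to 2.20). The auxiliary subunits KCNAB1, KCNE4 and KCNRG stood between 0.913 and 4.11 FPKM, and none of the 3 differed beyond counting error in any comparison. KCNK6, the only K2P gene at 1 FPKM, was at 1.16, 0.873 and 0.869 FPKM from 31, 22 and 27 reads, too few to show a difference of this size.

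Channels opened by intracellular calcium or sodium held the gene with the largest ratio among the 54. KCNN1 (gene 102170962) encodes a small conductance calcium-activated channel, of the kind that produces the afterhyperpolarization following an action potential. It was at 1.40, 1.07 and 7.31 FPKM, from 36, 26 and 219 reads. Kid and youth overlapped within counting error (ratio 0.766, 0.444 to 1.30), and adult was the high library. Adult was 6.83-fold above youth (4.54 to 10.7) and 5.23-fold above kid (3.67 to 7.67), at rank 29 of 12651 and 18 of 12659 entries. Both comparisons use the same adult library, so they are not separate evidence.

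The related KCNN3, the small conductance channel that denervated muscle is known to make, was at 5.38, 4.04 and 6.66 FPKM. It was lowest in youth, and adult was 1.65-fold above youth (1.35 to 2.02). KCNN1 therefore stood at 0.260 of the KCNN3 level in kid (0.177 to 0.371) and 0.265 in youth (0.167 to 0.404), and in adult the ratio had an interval that held 1 (1.10, 0.917 to 1.31). KCNN2 was below the limit at 0.808, 0.373 and 0.907 FPKM, and KCNN4, of blood cells and epithelia, did not pass 0.0364 FPKM. KCNMA1, the large conductance calcium-activated channel, was highest in youth, at 7.77, 9.28 and 7.35 FPKM (1.19-fold over kid, 1.05 to 1.37). Its smooth muscle subunit KCNMB1 was at 3.95, 3.24 and 3.03 FPKM, and KCNMB3 at 2.32, 1.84 and 2.28 FPKM, neither beyond counting error. KCNT1, a sodium-activated channel, was at 2.64, 2.27 and 1.75 FPKM, 1.51-fold lower in adult than in kid (1.15 to 1.97).

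**Figure D3:**
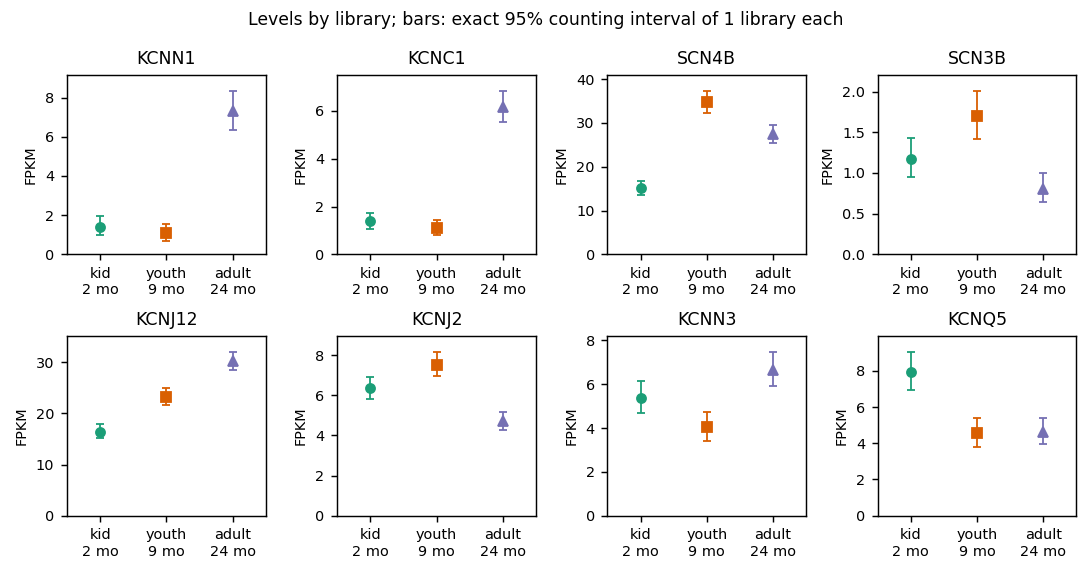
FPKM (vertical axis from 0) of 8 members by library, with bars for the exact 95% counting interval of that single library. KCNN1 and KCNC1 are high in adult alone, SCN4B is low in kid, KCNJ12 is higher at each step while KCNJ2 is lowest in adult, KCNN3 is lowest in youth, and KCNQ5 is highest in kid.

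The KCTD proteins and the other proteins outside the classical channel families were as abundant as many channels. The KCTD proteins share a fold with potassium channel tetramerization domains, and several are adaptors of ubiquitin ligases. Of the 20 KCTD genes 14 reached 1 FPKM, led by KCTD20 at 18.9, 17.9 and 16.4 FPKM and KCTD2 at 16.5, 14.5 and 14.9 FPKM. KCTD15 was 1.28-fold higher in youth than in kid (1.14 to 1.43), and none of the 14 met the 2-fold rule in any comparison. KCTD10 stood at 11.4, 9.40 and 8.48 FPKM. KCTD3, KCTD5, KCTD9, KCTD12 and KCTD13 lay between 4.28 and 9.23 FPKM, and KCTD6, KCTD18, KCTD21, KCTD1 and KCTD11 between 0.713 and 2.70 FPKM. KCTD1 rested on 36, 18 and 40 reads and was the lowest of them in youth. Beyond counting error, 1 KCTD gene was higher and 3 lower in youth than in kid, 1 was higher and 1 lower in adult than in youth, and 1 was higher and 3 lower in adult than in kid. Of all entries 11.4% were higher and 26.7% lower in the first of these comparisons, 21.9% and 26.6% in the second, and 16.2% and 34.1% in the third. The ubiquitin ligase KCMF1 was at 40.3, 46.1 and 47.6 FPKM. SCNM1, a splicing factor, stood at 30.1, 28.7 and 46.7 FPKM, so that adult was 1.63-fold above youth (1.43 to 1.85). CLCC1, reported as an anion channel of the endoplasmic reticulum, was at 16.3, 15.8 and 14.8 FPKM, CLNS1A, which helps to assemble splicing particles, at 14.8, 12.8 and 13.9 FPKM, and SCLT1, a centriole protein, at 1.05, 0.945 and 1.19 FPKM.

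Counted over the 54 members, 1 was at least 2-fold higher in youth than in kid (SCN4B) and 0 were lower, against 0.915% and 2.23% of 12677 entries at 1 FPKM. In adult against youth 2 were higher (KCNN1 and KCNC1) and 1 lower (SCN3B), against 2.45% and 3.06% of entries. In adult against kid 2 were higher, again KCNN1 and KCNC1, and 0 lower, against 1.09% and 3.57%. These counts are too small to set the members apart from the rest of the table. Of the 54, 36 differed beyond counting error in at least 1 comparison (66.7%), near the 69% of all entries that did.

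By the interval alone, 12 members were higher and 8 lower in youth than in kid (11.4% and 26.7% of all entries). In adult against youth 14 were higher and 9 lower (21.9% and 26.6%), and in adult against kid 16 and 13 (16.2% and 34.1%). The members' median log2 ratio was -0.08 (youth to kid), -0.02 (adult to youth) and -0.07 (adult to kid). Over all entries it was -0.10, -0.03 and -0.12. These shifts of all entries vanish by construction when libraries are rescaled by the median of ratios, which raises every ratio to kid. Higher at both steps were 3 members, KCNJ12 and KCNA7 among them, which held for 1.28% of entries. Higher in youth than in both neighbours were 6 members (7.43% of entries), and lower in youth 3 (10.6%), while 0 were lower at both steps (4.61%).

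**Figure D4:**
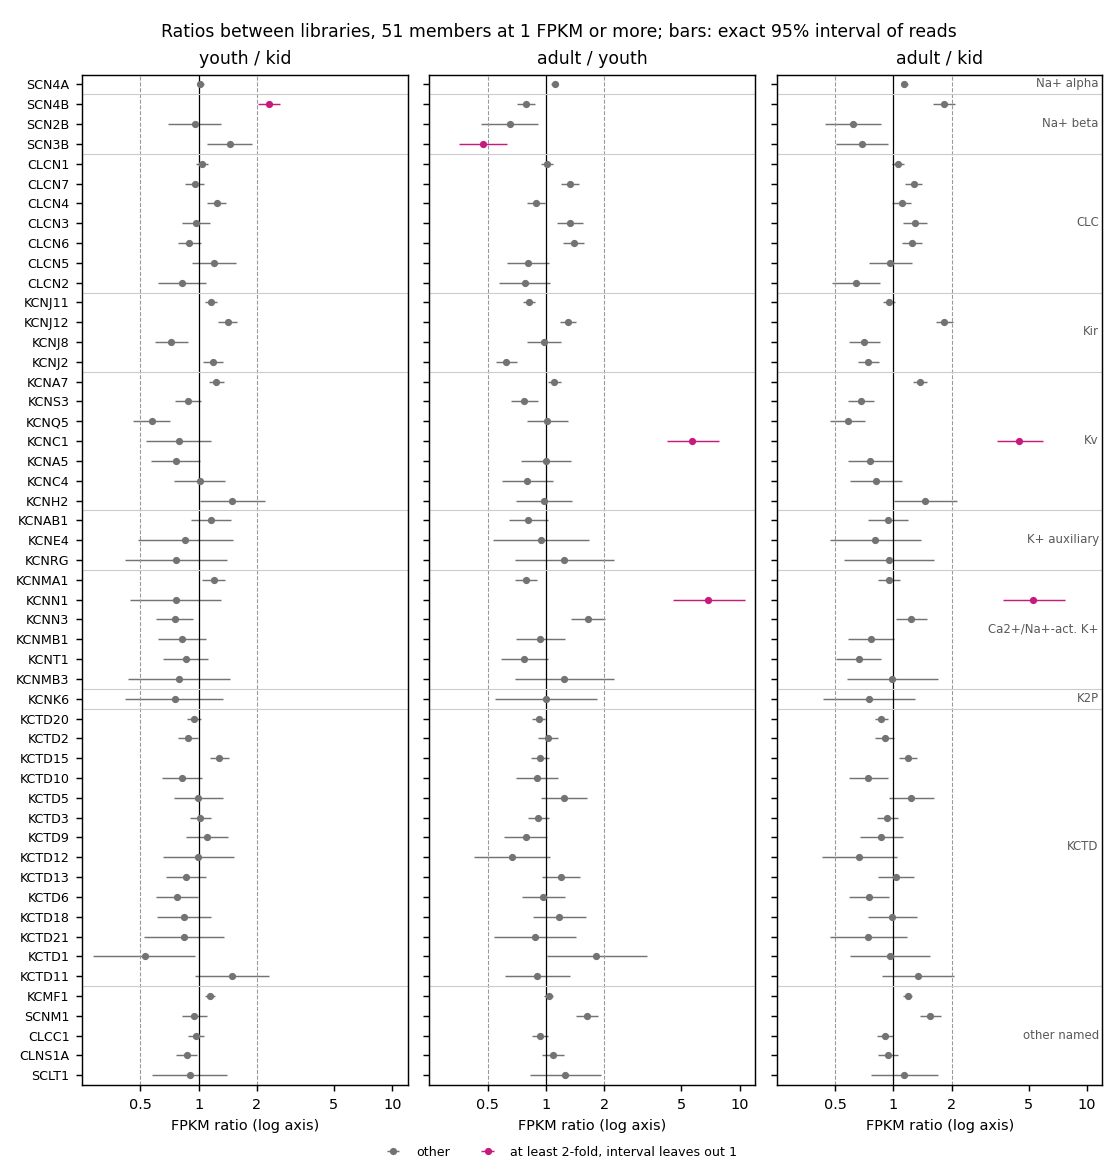
FPKM ratios on a log axis for 51 of the 54 members at 1 FPKM or more, in 3 panels for the 3 pairs of libraries, with exact 95% intervals of the reads and dashed lines at 2-fold. Coloured points mark the ratios at least 2-fold apart whose interval leaves out 1: SCN4B in youth over kid, SCN3B, KCNC1 and KCNN1 in adult over youth, and KCNC1 and KCNN1 in adult over kid.

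Genes that work with these channels were followed in lists chosen beside the members. Of 17 genes of the sodium-potassium pump and ion cotransporters at 1 FPKM, 2 were higher and 8 lower beyond counting error in youth than in kid, and 6 were higher and 1 lower in adult than in youth. Over all entries at 1 FPKM, 11.4% were higher and 26.7% lower in the first comparison, and 21.9% and 26.6% in the second. FXYD1, a small regulator of the pump, was the most abundant, at 386, 305 and 379 FPKM. The sodium-calcium exchanger SLC8A3 was at 6.96, 8.94 and 13.8 FPKM (1.54-fold from youth to adult, 1.39 to 1.70), and FXYD3 at 1.69, 0.718 and 2.11 FPKM.

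Of 18 other chloride and anion channel genes, 5 were higher and 2 lower in youth than in kid, and 1 was higher and 7 lower in adult than in youth. Among them CLIC4, a chloride intracellular channel protein, was at 73.4, 99.4 and 49.4 FPKM (adult 2.01-fold below youth, 1.93 to 2.10). ANO5, a membrane protein mutated in a limb-girdle dystrophy, was at 23.1, 23.5 and 13.1 FPKM, and LRRC8C, a subunit of volume-regulated anion channels, at 4.36, 3.55 and 1.95 FPKM. Of 12 channel partners and other sodium-permeable channels, 7 were higher and 3 lower in youth than in kid, and 2 were higher and 7 lower in adult than in youth. For both lists the shares of all entries were 11.4% higher and 26.7% lower, then 21.9% and 26.6%. ANK1, an ankyrin that links membrane proteins to the cytoskeleton, was at 159, 174 and 151 FPKM. DPP6, a partner of shal-type potassium channels, was at 1.91, 0.928 and 2.46 FPKM, the ubiquitin ligase NEDD4 at 11.02, 15.0 and 9.72 FPKM, and the kinase SGK1 at 12.2, 9.92 and 5.84 FPKM. The second sulphonylurea receptor, ABCC8, was at 2.65, 2.31 and 1.71 FPKM.

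Cells other than muscle fibres also make some of these channels, and in whole muscle fewer cells of a type and less RNA per cell cannot be told apart. The summed level of 6 Schwann cell markers was 208, 121 and 79.6 FPKM, and of the 5 tested 0 were higher and 4 lower in youth than in kid. SCN7A, SCN8A and KCNA2, channels known from nerve and its sheath, were also lower in youth than in kid, although each lay below 0.5 FPKM. Smooth muscle and pericyte markers summed to 482, 367 and 493 FPKM (8 genes, 4 lower and 0 higher in youth than in kid, 6 higher and 2 lower in adult than in youth). KCNJ8, known from vessel walls, was lower in youth than in kid, KCNMB1 did not differ beyond counting error, and its pore KCNMA1 was highest in youth. Endothelial markers summed to between 158 and 190 FPKM (6 genes), and those of blood and immune cells to 33.6, 39.04 and 19.3 FPKM (5 genes, all 5 lower in adult than in youth). Adipocyte markers summed to 85.8, 30.0 and 45.6 FPKM (4 genes, 3 tested). Of 7 tested endplate and denervation genes, 2 were higher and 2 lower in adult than in youth. Their sum of 75.6, 53.4 and 104 FPKM was highest in adult, where KCNN1 and KCNC1 were highest too, and 62.0 FPKM of it was MYOG, while CHRNG and CHRNA1 were lowest there. Over all entries 11.4% were higher and 26.7% lower in youth than in kid, and 21.9% and 26.6% in adult than in youth. The part of any of these cell types or marker genes in the channel values was not tested.

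The 66 members between 0 and 1 FPKM had a median highest value of 0.132 FPKM. Of them 10 met the 2-fold rule in a comparison on few reads. The share of all entries below 1 FPKM that met it is not given, so this count says nothing particular about the members. Not all of the 10 are named, and those named here were chosen after their values were seen, so their directions do not stand for the whole set. KCNA2, SCN7A, SCN8A and KCNJ3 were lower in youth than in kid, KCNN2 and KCNJ3 higher in adult than in youth, and KCNK2, SCN3A and KCNF1 lower. KCNK7 was higher in adult than in kid, on 16 against 4 reads. The 22 members listed at 0 included 8 voltage-gated potassium channels, 5 K2P channels, the inward rectifiers KCNJ4 and KCNJ6, and the 3 CLCA genes of epithelia.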

How the data were processed

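RNA was sequenced from 3 libraries, 1 per stage, and the authors deposited the FPKM values of all stages in 1 table. The tools TopHat2, DESeq and FastQC are named without version or role, per the submitters' processing notes. For build, annotation, counting and strand, nothing is stated in the labels, so reads of near-identical or overlapping genes may be shared.

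Members and lists were chosen with earlier results of these data known. Every member at 1 FPKM in a library is named, apart from items that are not reported here. Each partner list gives its most abundant gene and up to 3 with the largest difference of log2(FPKM + 1). Symbols came by gene number from RefSeq (ARS1.2, names only) for 139 of 142 members.

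Whole reads and lengths were solved from the FPKM values (tolerance 5e-05 of a read) for the 16054 entries detected in 3 libraries and the 1157 detected in 2. Where reads and length share a factor, fewer reads are returned and intervals are wider. The recovered reads made up 95.3%, 94.9% and 96.3% of the totals. Ratios have exact (Clopper-Pearson) 95% intervals. A member was counted where the ratio was at least 2-fold and the interval left out 1. The steps were tested on simulated reads. Alternatives were other limits, filters and pseudocounts, median-of-ratios scaling and quantile normalization. Python 3.11.15, numpy 2.4.6 and scipy 1.17.1 were used.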

Additional observations from a re-analysis of the deposited data

How the results depend on the processing

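With 1 library per stage no library could be left out, and no paired analysis was possible because each stage has 1 library. In each comparison the counts of members at least 2-fold apart were recomputed under 11 settings. Without a filter on low values, 2 members were higher and 4 lower in youth against kid, and 4 higher and 4 lower in adult against youth. At 1.5-fold, 3 were lower in youth against kid, 6 higher and 3 lower in adult against youth, and 5 higher and 4 lower in adult against kid. With a pseudocount of 5, 0 were higher in youth against kid, 1 in adult against youth and 0 in adult against kid. Shares of all entries under these altered settings are not given, so these counts show only how the members' calls depend on the rule. SCN3B ceased to count as lower in adult against youth, leaving 0, with a pseudocount of 1, 0.1 or 5, at a minimum of 5 FPKM, and after quantile normalization. KCNN1 and KCNC1 met the 2-fold rule in both adult comparisons under both scalings, with ratios between 4.86 and 6.95. No difference beyond counting error changed direction under either scaling. Of 20, 23 and 29 such differences in youth against kid, adult against youth and adult against kid, 16, 21 and 23 stayed beyond counting error after median-of-ratios scaling and 15, 22 and 23 after quantile normalization. The median log2 ratio of the members in adult against kid was -0.07, and 0.05 and 0.14 under these scalings. Depth limits the low members most: for KCNK6, on 31, 22 and 27 reads, a ratio of 0.753 had an interval that held 1.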
